A study of Mus musculus with 3 samples.

Results

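Ptgs1, Ptgs2, Ptges, Hpgds, Alox5, Alox5ap, Alox15 and Ltc4s encode the enzymes, and 1 enzyme partner, that turn arachidonic acid into prostaglandins and leukotrienes. These 8 genes were chosen by name from the 31053 genes counted in each library, with earlier results of these data known, and all 8 were found. They are described across the macrophage states, monocytes, group 2 innate lymphoid cells (ILC2), dendritic cells and other cells of the pancreas in 3 single-cell RNA-seq libraries.

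Arachidonic acid, once freed from membrane phospholipids, is taken up by cyclooxygenases or by lipoxygenases. The cyclooxygenases, encoded by the constitutive Ptgs1 and the inducible Ptgs2, make prostaglandin H2, which terminal synthases turn into prostaglandin E2 (the Ptges product, a mediator of fever, pain and vascular leak) or prostaglandin D2 (the Hpgds product, made by mast cells and by several tissue macrophages). The lipoxygenase encoded by Alox5 works with the membrane protein encoded by Alox5ap to make leukotriene A4, from which the Ltc4s product forms leukotriene C4, while the Alox15 product oxidises fatty acids at another carbon and is a known mark of peritoneal macrophages.

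The cells were live CD45+ cells, that is, cells with the common leukocyte surface protein, sorted from the pancreas of wild-type C57BL/6 mice. One group received PBS, and the others received whole beta-glucan particles (WGP, hollow yeast cell walls that phagocytes take up) in the peritoneal cavity 3 days or 7 days before the tissue was taken (3-day WGP and 7-day WGP). Per the study's methods, male and female mice aged 6 to 8 weeks were used, and the number and sex of the mice behind each library are not given in the sources used here. Each group was 1 library, so there was no replicate and no test between groups, and every interval given here covers counting error only.

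Counts were unique molecular identifiers (UMIs), and levels are UMIs of a gene per 1000000 UMIs of all genes (CPM), summed over the cells of a type in a library. Cells with at least 1000 UMIs and at most 30% mitochondrial UMIs were kept, and after removal of likely doublets there were 5029 cells in the PBS library, 4689 in the 3-day library and 4035 in the 7-day library, with a median of 5507, 5580 and 7806 UMIs per cell. The libraries shared 15 of 14287 barcodes. Clusters were named "X-like" from marker lists with the enzyme genes left out of the clustering, and clusters that met no list are given by their leading genes in brackets. The monocyte/macrophage-like class held 814, 734 and 1433 cells. Its sex transcripts differed between libraries: cells with Xist and no Y-linked transcript numbered 764, 72 and 561, and cells with a Y-linked transcript and no Xist numbered 7, 477 and 574. Group and mouse therefore cannot be told apart, and values within cells of 1 sex are given beside most of the macrophage results they touch.

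The gene starts stood in the GRCm38 (mm10) assembly, and RefSeq promoter sequences were at hand for 6 of the 8 genes (not for Alox5ap and Alox15). The 250 bases before the start are shown for Ptgs1, Ptgs2 and Hpgds, because Ptgs1 and Ptgs2 encode alternative enzymes for the same step and the levels of Hpgds and Ptgs2 differed in opposite directions after WGP. Capitals mark letters that match a motif searched on both strands. The starts are those of RefSeq, and that of Hpgds lies inside the GENCODE gene given with its values, so that 178 of the 250 bases of its window, with the marked motif, are within that gene. The intervals are chr2:36230176-36230425 (plus strand) for Ptgs1, chr1:150099781-150100030 (plus strand) for Ptgs2 and chr6:65144731-65144980 (minus strand) for Hpgds.
Ptgs1: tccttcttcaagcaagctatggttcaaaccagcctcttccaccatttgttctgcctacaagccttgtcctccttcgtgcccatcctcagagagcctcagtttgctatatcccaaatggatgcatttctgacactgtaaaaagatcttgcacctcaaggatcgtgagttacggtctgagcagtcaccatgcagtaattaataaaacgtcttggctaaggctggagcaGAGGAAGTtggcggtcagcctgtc
Ptgs2: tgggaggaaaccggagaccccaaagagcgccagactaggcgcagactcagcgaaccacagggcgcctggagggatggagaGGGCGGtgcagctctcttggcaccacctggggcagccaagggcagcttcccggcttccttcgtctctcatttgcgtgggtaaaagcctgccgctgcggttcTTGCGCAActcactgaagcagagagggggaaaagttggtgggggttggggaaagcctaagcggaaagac
Hpgds: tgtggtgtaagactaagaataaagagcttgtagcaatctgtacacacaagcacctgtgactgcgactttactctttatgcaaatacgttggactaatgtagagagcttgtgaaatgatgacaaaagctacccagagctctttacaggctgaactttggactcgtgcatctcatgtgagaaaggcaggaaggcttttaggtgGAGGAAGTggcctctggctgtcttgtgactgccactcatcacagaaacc
The Ptgs2 window held the C/EBP motif TTGCGCAA from base 69 to base 62 before the start, a match found in 0.164% of all 32851 RefSeq promoter windows of this length, and the Sp1 motif GGGCGG from base 170 to base 165, found in 32.7% of windows. The Ptgs1 and Hpgds windows each held the ETS/PU.1 motif GAGGAAGT, from base 24 to base 17 and from base 49 to base 42, a match found in 2.44% of windows. Sp1 letters also stood in the windows of Ptges and Alox5. All 250 bases of the Ptges window, and 84 bases of the Ltc4s window, lay inside the GENCODE genes given with their values. The letters searched as E-box (CACGTG), cAMP response element core (TGACGT), AP-1 (TGANTCA), NF-kB and TATA box (TATAAA) were in none of the 6 windows and in 6.02%, 6.47%, 6.75%, 1.41% and 12.4% of all windows. These matches describe the letters only, and bases after the RefSeq start were not searched, so absence from a window is not absence from a promoter.

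The cyclooxygenase genes differed in where they were found. Ptgs1 (ENSMUSG00000047250, chr2:36230426-36252272, plus strand), the gene of the constitutive enzyme, was at 63.7 CPM in the monocyte/macrophage-like class of the PBS library, 57.4 CPM at 3 days and 28.2 CPM at 7 days. Its level at 7 days was thus under that of the other libraries, by a log2 ratio of -1.18 against PBS (95% interval -1.36 to -0.995), while the 3-day ratio was -0.15 (-0.32 to 0.02). After thinning every cell to 1000 UMIs, which makes cells of unlike depth comparable, 6.39%, 5.04% and 2.30% of cells held a Ptgs1 UMI, against at most 0.195% of B-like cells and at most 0.342% of T-like cells in any library, cell types in which free RNA sets the background. In cells with Xist only, the Ptgs1 level was 64.5 CPM, 148 CPM and 29.7 CPM, so that the 3-day value was above PBS in these cells (log2 ratio 1.199, 95% interval 0.92 to 1.47) and below it in the class as a whole. Platelets also carry Ptgs1, and of the 6 platelet markers Gp9, Gp1bb and Gp5 were at 0 in this class in all 3 libraries, with Itga2b at most 0.368 CPM and Ppbp at most 2.94 CPM, while Pf4, which resident macrophages also express, was at 1863, 535 and 78.5 CPM.

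By class, Ptgs1 was highest in the fibroblast-like cells (169, 90.1 and 122 CPM in 71, 50 and 33 cells), which passed the CD45 sort in small numbers. Of the 71 PBS cells, 41 formed a sub-cluster led by Sst, Clu and Plvap, genes of islet and endothelial cells, that took no name (195 CPM), and the fibroblast-like sub-cluster alone was at 149.98, 94.2 and 132 CPM in 30, 43 and 23 cells. Under 4 of the other settings tried, an endothelial-like class ranked first for Ptgs1. The monocyte/macrophage-like class came next by its mean over libraries. It was close to the neutrophil-like class (61.6, 8.40 and 15.9 CPM) in PBS and above it at both times after WGP, though the ranges over libraries overlapped. ILC2-like cells were at 4.87 CPM and 3.37 CPM in the PBS and 3-day libraries. Among the macrophage states, Ptgs1 was highest in the state led by Cxcl13, Vsig4 and Lyve1 (313 CPM in 36 PBS cells and 290 CPM in 13 cells at 3 days). This state came mainly from a cluster without a class name, so values of the monocyte/macrophage-like class largely leave it out. Resident macrophage-like cells held 98.8 CPM in PBS and 67.4 CPM at 3 days. Inflammatory macrophage-like cells, which express Ccl5, Cxcl9 and Nos2, were at 10.49 CPM in 658 cells at 7 days. Large peritoneal macrophage-like cells were at 98.0 CPM and 124 CPM after WGP.

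Ptgs2 (ENSMUSG00000032487, chr1:150100031-150108227, plus strand) encodes the inducible cyclooxygenase. In the monocyte/macrophage-like class it was at 6.86 CPM in PBS (56 UMIs), 95.3 CPM at 3 days (1050 UMIs) and 320 CPM at 7 days (5328 UMIs). The level was therefore 13.9-fold higher at 3 days (log2 ratio 3.797, 95% interval 3.41 to 4.21) and 46.6-fold higher at 7 days (5.54, 5.16 to 5.95). The share of cells with a Ptgs2 UMI after thinning was 0.491%, 7.90% and 19.5%, against 0%, 0.120% and 0% of B-like cells and 0%, 0% and 0.684% of T-like cells. The level followed the same order in cells with Xist only (7.06, 54.2 and 225 CPM).

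**Figure D1:**
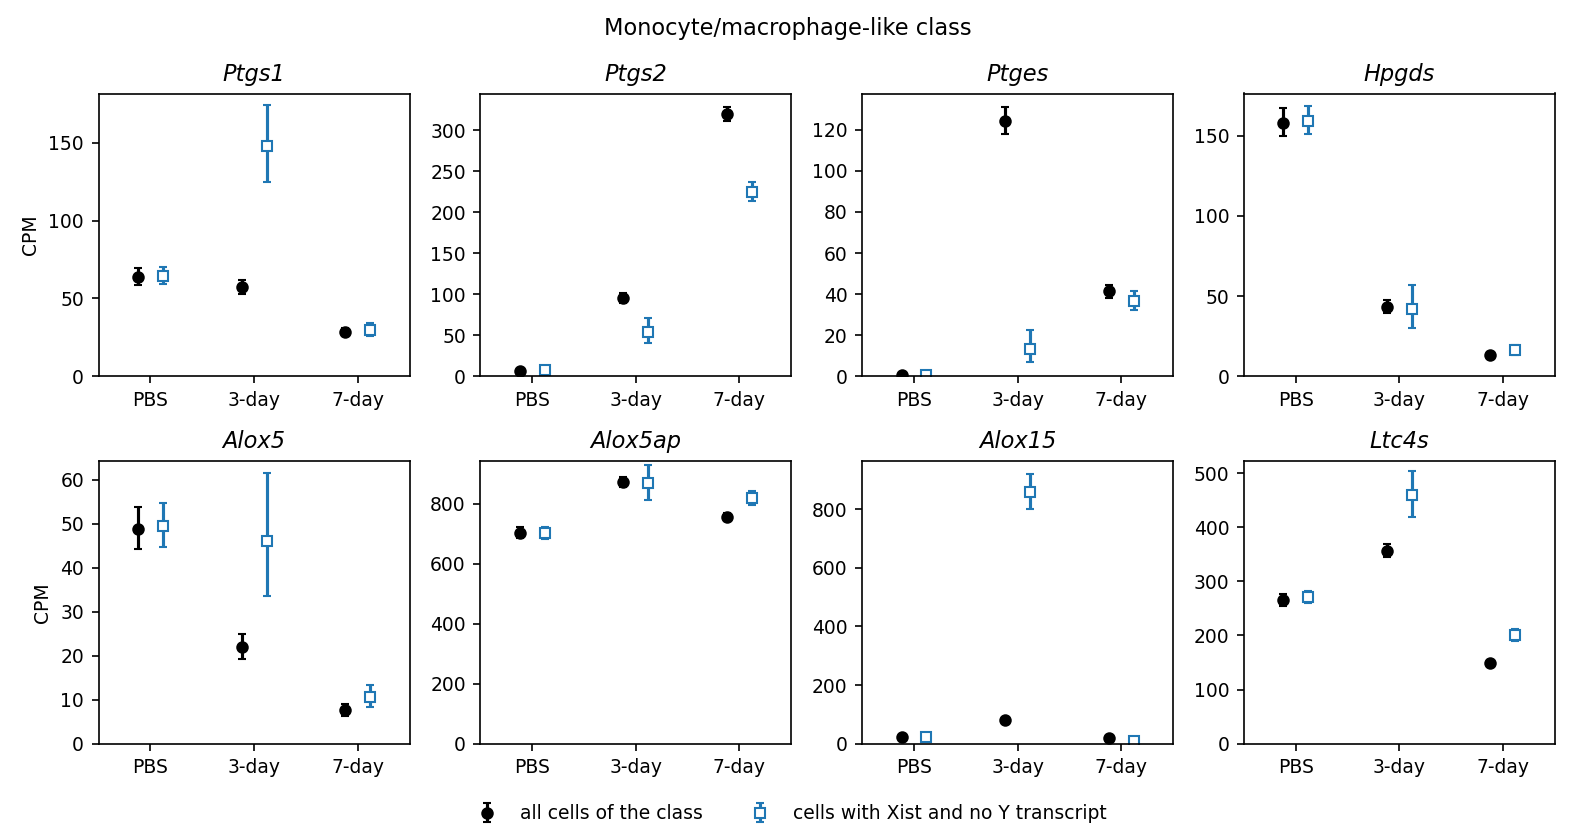
Level of the 8 enzyme genes in the monocyte/macrophage-like class by library (CPM, linear axes from 0, a scale of its own for each gene). Black circles are all cells of the class, blue squares are cells with Xist and no Y-linked transcript, and bars are exact 95% Poisson intervals (counting error only). In all cells Ptgs2 was at 6.86, 95.3 and 320 CPM and Hpgds at 158, 43.4 and 13.1 CPM, and the order was the same in cells with Xist only, whereas Alox15 at 3 days was 80.4 CPM in all cells and 858 CPM in those with Xist only.

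Neutrophil-like cells held the highest Ptgs2 level of any class in all 3 libraries, with no overlap of its range with that of the macrophages, which in turn overlapped the cDC2/migratory DC-like class (37.7, 42.6 and 69.6 CPM). Summed over the class, it was 466 CPM in PBS (82 cells), 1382 CPM at 3 days (226 cells) and 1747 CPM at 7 days (185 cells). Those cells fell into a state led by Hdc, G0s2 and Cxcl2 and a state led by Camp, Ngp and Lcn2, genes of neutrophil granules. In the former, Ptgs2 was at 1934, 1752 and 2102 CPM, with a log2 ratio of -0.14 (95% interval -0.34 to 0.06) at 3 days and 0.12 (-0.09 to 0.33) at 7 days against PBS. In the latter it was at 5.06 CPM in 34 PBS cells and 30.4 CPM in 13 cells at 3 days. Against PBS the class sum was thus higher at both times, while the state led by Hdc differed by no more than its counting interval. That state was nonetheless higher at 7 days than at 3 days. The granule-gene state made up 34 of 82 cells in PBS and 13 of 226 at 3 days, and its part in the class sums was not tested.

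Because neutrophils carry so much Ptgs2, neutrophil transcripts were counted in the macrophages. The summed level of the 6 neutrophil markers in the monocyte/macrophage-like class was 149.8 CPM in PBS, 422 CPM at 3 days and 185 CPM at 7 days, with the defining receptor Cxcr2 at 0, 3.00 and 1.56 CPM. The other markers did not move together. S100a8 was at 10.0, 179 and 62.6 CPM and S100a9 at 9.68, 141 and 32.5 CPM. Csf3r was at 46.2, 73.6 and 85.6 CPM, Retnlg at 0.490, 2.18 and 0.180 CPM, and Mmp9 at 83.4, 22.4 and 2.76 CPM. With every cell that held a Retnlg, Cxcr2 or Csf3r UMI left out, Ptgs2 was at 6.17, 84.5 and 280 CPM. That rule kept only 547, 322 and 633 of the 814, 734 and 1433 cells, and Csf3r was the most abundant of its 3 genes. Cells that held only S100a8, S100a9 or Mmp9 of the list were kept. The free RNA of the libraries, read from barcodes of at most 100 UMIs, held Ptgs2 at 9.92, 68.8 and 136 CPM, and at the share of free RNA estimated for this class would give it 0.970, 1.61 and 1.48 CPM.

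Among the macrophages and monocytes, Ptgs2 was spread unevenly over the states. It was highest in inflammatory macrophage-like cells, at 454 CPM in 31 cells at 3 days and 548 CPM in 658 cells at 7 days, and the 12 such PBS cells held 3 UMIs (24.2 CPM, 95% interval 4.99 to 70.7). At 7 days the level was 399 CPM in cells of this state with Xist only and 633 CPM in those with a Y-linked transcript only. Arg1 macrophage-like cells were at 42.2 CPM at 3 days and 255 CPM at 7 days (log2 ratio 2.59, 2.28 to 2.92). Ly6C-high monocyte-like cells were at 149 CPM and 110 CPM after WGP and held 1 UMI in 20 PBS cells, and Ly6C-low monocyte-like cells were at 11.95, 25.4 and 4.11 CPM. Resident macrophage-like cells held no Ptgs2 UMI in any library, with 204 cells in PBS and 48 at 3 days, and 3 counts, taken as the limit that a count of 0 allows, would be 1.54 CPM in PBS. In the related state led by Mucl1, Fcrls and Ms4a7 the level was 9.41 CPM in PBS, 2.03 CPM at 3 days and 42.4 CPM at 7 days (30 cells).

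The state that held most Ptgs2 transcripts changed between libraries. Neutrophil-like cells held 58.6% of all Ptgs2 UMIs in kept PBS cells and 55.8% at 3 days. At 7 days inflammatory macrophage-like cells, 16.3% of the kept cells, held 60.4%. The dendritic-like cells held 21.1% in PBS; of these, the cells that shared cDC2 and migratory markers were at 92.1, 78.2 and 83.4 CPM, while cDC1-like cells were at 0, 0 and 9.68 CPM. Gamma-delta T-like cells were at 18.1, 5.58 and 42.2 CPM. A cluster of shallow barcodes led by Cma1, Cpa3 and Mcpt4, which took no name, held Ptgs2 at 0, 10.0 and 360 CPM.

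**Figure D2:**
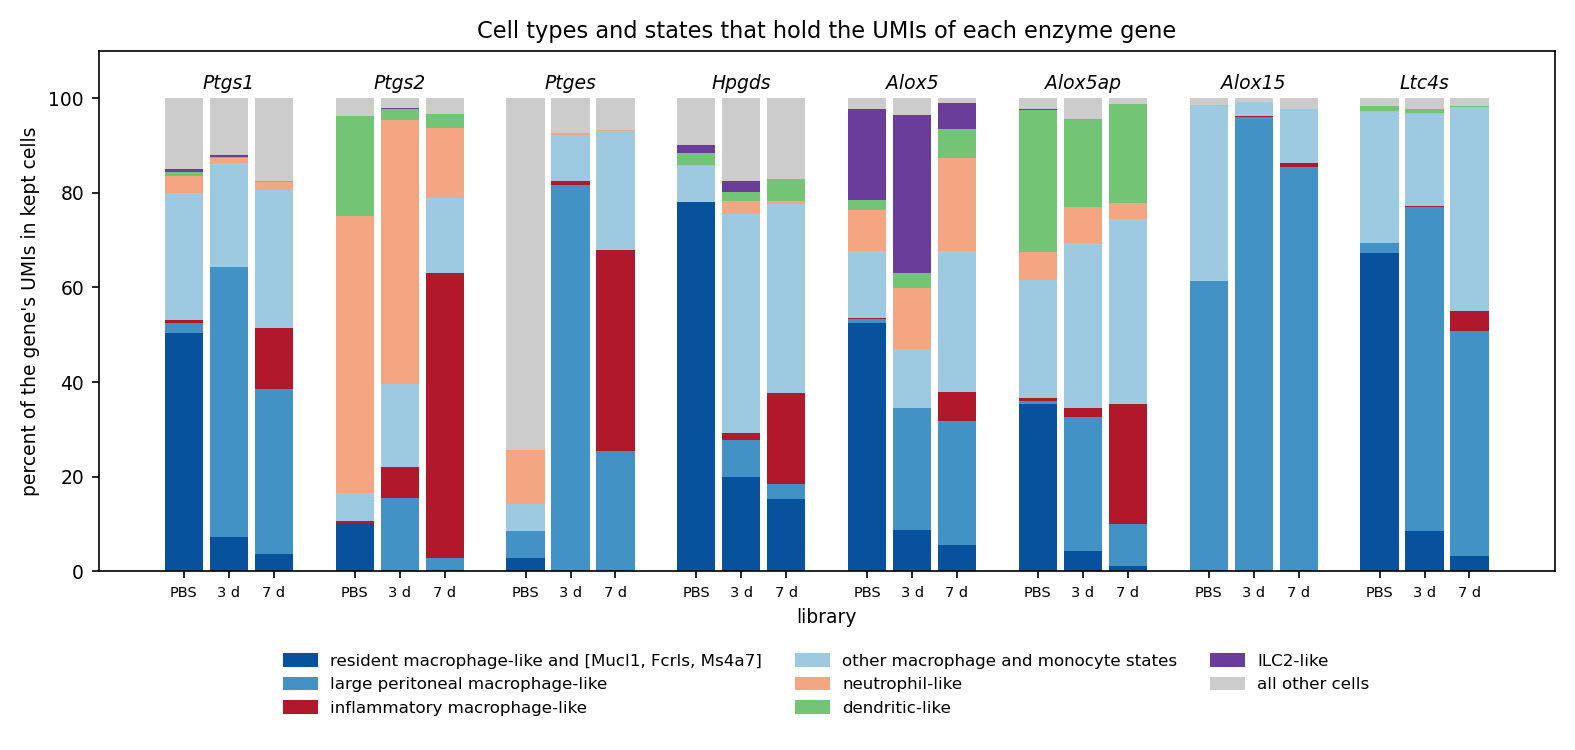
Percent of each gene's UMIs in kept cells that came from each group of cells, by library (PBS, 3 d and 7 d after WGP), with 1 stacked bar per gene and library. For Ptgs2 the neutrophil-like share was 58.6% and 55.8% in PBS and at 3 days and the inflammatory macrophage-like share was 60.4% at 7 days, for Hpgds the share of resident macrophage-like cells and the Mucl1, Fcrls, Ms4a7 state was 78.1% in PBS, and for Ptges the large peritoneal macrophage-like share was 81.6% at 3 days.

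The terminal prostaglandin synthases differed in opposite directions in the monocyte/macrophage-like class. Ptges (ENSMUSG00000050737, chr2:30889471-30929863, minus strand), the inducible prostaglandin E synthase, was at 0.613 CPM in PBS (5 UMIs), 124 CPM at 3 days (1370 UMIs) and 41.3 CPM at 7 days (688 UMIs). The log2 ratio against PBS was 7.67 at 3 days (95% interval 6.44 to 9.29) and 6.08 at 7 days (4.85 to 7.70), and the 7-day level was below the 3-day level (-1.59, -1.72 to -1.46). The size of the 3-day value depended on which cells were read: it was 13.3 CPM in cells with Xist only and 155 CPM in cells with a Y-linked transcript only, against 36.7 CPM and 53.1 CPM at 7 days. Both sets were above the PBS level. B-like cells held 0, 1 and 1 Ptges UMIs, and the free RNA expected in the class was at most 0.492 CPM.

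Most Ptges transcripts at 3 days lay in 1 state, as the states were clustered here. Large peritoneal macrophage-like cells were at 257 CPM in 256 cells at 3 days and 111 CPM in 113 cells at 7 days, and the 4 PBS cells held 2 UMIs (26.6 CPM, 95% interval 3.22 to 96.1). They held 81.6% of all Ptges UMIs at 3 days and 25.4% at 7 days, when inflammatory macrophage-like cells, at 42.2 CPM, held 42.4%. At 3 days, 151 of the 256 cells held a Ptges UMI, and of 61 cells with Ptgs2, 49 also held Ptges. In inflammatory macrophage-like cells at 7 days, 44 of 431 cells with Ptgs2 also held Ptges, and in neutrophil-like cells of the Hdc state it was 3 of 143 at 3 days. Arg1 macrophage-like cells were at 51.4 CPM and 74.5 CPM, and no Ptges UMI was found in resident macrophage-like cells. With coarser clustering (a resolution of 0.4) the large peritoneal and Arg1 states formed 1 state of 395 cells at 3 days and 266 at 7 days, with Ptges at 189.8 CPM and 115 CPM and Alox15 at 126 CPM and 78.9 CPM.

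Fibroblast-like cells ranked above the macrophages for Ptges by their mean over libraries, but the ranges overlapped. Their level was 30.3, 103 and 81.5 CPM, with a log2 ratio of 1.76 at 3 days (95% interval 1.08 to 2.51) and 1.43 at 7 days (0.67 to 2.23) against PBS. In the fibroblast-like sub-cluster alone, without the Sst, Clu, Plvap cells that made up much of the PBS class, the level was 53.2, 109 and 95.7 CPM, and the log2 ratios were 1.04 (0.35 to 1.78) and 0.85 (0.09 to 1.65).

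Hpgds (ENSMUSG00000029919, chr6:65117293-65144908, minus strand), the haematopoietic prostaglandin D synthase, was lower after WGP. In the monocyte/macrophage-like class it was at 158 CPM in PBS, 43.4 CPM at 3 days and 13.1 CPM at 7 days, a log2 ratio of -1.87 (95% interval -2.02 to -1.71) and -3.59 (-3.80 to -3.38). The thinned share of cells with an Hpgds UMI was 12.2%, 4.77% and 1.26%, and that of B-like cells 0.987%, 0.963% and 0.390%. The 7-day share in macrophages was thus not far above that of B-like cells. Those cells are an uncertain background here. Free RNA held Hpgds at 33.0, 21.3 and 7.54 CPM, while the B-like level stayed between 8.42 and 8.71 CPM. Cells with Xist only gave 160, 41.9 and 16.3 CPM.

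Within states the difference in Hpgds was smaller. Resident macrophage-like cells held 225 CPM in PBS (204 cells), 173 CPM at 3 days (48 cells) and 131 CPM in the 8 cells found at 7 days, with a 3-day log2 ratio of -0.38 (95% interval -0.76 to -0.02). In resident macrophage-like cells with Xist only, 200, 12 and 4 in number, it was at 226, 239.8 and 209 CPM. The Mucl1, Fcrls, Ms4a7 state held 171, 114 and 124 CPM in 368, 49 and 30 cells (-0.59, -1.01 to -0.19, at 3 days). Together these states held 78.1% of all Hpgds UMIs in PBS, and they made up 11.4%, 2.07% and 0.942% of the kept cells in the PBS, 3-day and 7-day libraries. Hpgds was low in the states that were numerous after WGP, at 10.6 CPM and 5.32 CPM in large peritoneal macrophage-like cells, 26.2 CPM and 7.40 CPM in inflammatory macrophage-like cells and 3.68 CPM and 1.58 CPM in Ly6C-high monocyte-like cells. Arg1 macrophage-like cells were between them at 113 CPM and 43.3 CPM.

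**Figure D3:**
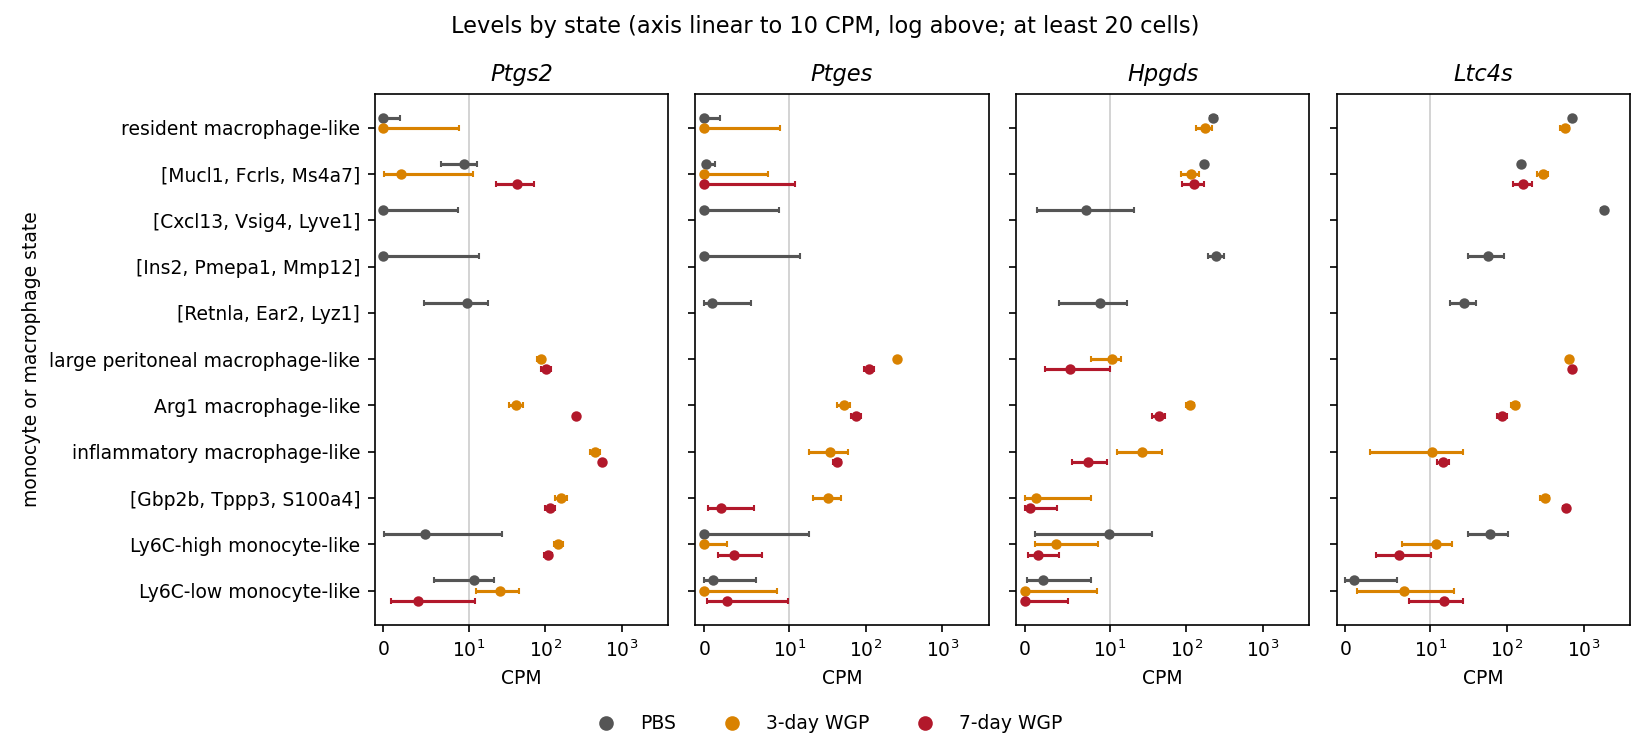
Level of Ptgs2, Ptges, Hpgds and Ltc4s in each monocyte or macrophage state with at least 20 cells in a library (CPM, axis linear up to 10 CPM and logarithmic above). Points are the sums over the cells of 1 library and bars are exact 95% Poisson intervals (counting error only). Ptgs2 was at 0 in resident macrophage-like cells and at 548 CPM in inflammatory macrophage-like cells at 7 days, and Hpgds stood at 225 CPM in the former and 7.40 CPM in the latter.

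Outside the macrophages, Hpgds was at 21.9 CPM in ILC2-like cells of the PBS library and 18.0 CPM at 3 days, and the 11 ILC2-like cells at 7 days held no UMI. The 3-day value was 6.90 CPM when 5 barcodes with at least 5 UMIs of the mast cell genes Cpa3 and Mcpt4 were left out. In the PBS and 3-day libraries the monocyte/macrophage-like class was above the ILC2-like cells. The ranges of these 2 classes over libraries overlapped only through the 7-day macrophage level. B-like cells were at 8.71, 8.42 and 8.68 CPM, a level that differed between libraries by less than its counting interval.

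The genes of the leukotriene route did not share a cell type. Alox5 (ENSMUSG00000025701, chr6:116410077-116461178, minus strand), the gene of 5-lipoxygenase, had its highest mean over libraries in ILC2-like cells, at 110 CPM in PBS (273 cells), 216 CPM at 3 days (284 cells) and 114 CPM at 7 days (11 cells). The 3-day level was 1.97-fold that of PBS (log2 ratio 0.98, 95% interval 0.65 to 1.31), and the 7-day ratio was 0.06 (-0.98 to 0.94). After thinning, 7.69%, 19.4% and 27.3% of these cells held an Alox5 UMI, the last value being 3 of 11 cells, while no T-like cell did in any library. The 6 mast cell markers, summed, stood at 67.4, 2386 and 20.8 CPM in the ILC2-like class, with Cma1 and Mcpt4 at 0 in PBS and at 7 days and at 1449 CPM and 322 CPM at 3 days, and without the 5 barcodes rich in Cpa3 and Mcpt4 the 3-day Alox5 level was 211 CPM. The sexes of these cells also differed, with 84 cells holding Xist only in PBS and 3 at 3 days. Cells with a Y-linked transcript only numbered 92 in PBS and 122 at 3 days, and Alox5 within them is not given here. The part of the sexes in the difference was not tested.

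Neutrophil-like cells ranked next for Alox5, at 117 CPM in PBS, 69.1 CPM at 3 days and 68.7 CPM at 7 days, a range that overlapped that of ILC2-like cells. In PBS they were above the ILC2-like cells, and they ranked first when the enzyme genes were kept in the clustering. Both neutrophil states held it, at 145, 65.4 and 70.5 CPM in the Hdc state and at 109 CPM and 82.4 CPM in the Camp state of the PBS and 3-day libraries. In the monocyte/macrophage-like class the level was 48.9, 21.97 and 7.63 CPM, with a log2 ratio against PBS of -1.15 (95% interval -1.39 to -0.92) at 3 days and -2.68 (-2.98 to -2.39) at 7 days. In cells with Xist only it was 49.5, 46.0 and 10.6 CPM, and the log2 ratios there were -0.11 (-0.59 to 0.34) and -2.23 (-2.62 to -1.86). Resident macrophage-like cells held 97.2 CPM in PBS and 62.6 CPM at 3 days, the Cxcl13, Vsig4, Lyve1 state 124 CPM and 121 CPM, and inflammatory macrophage-like cells 1.61 CPM at 7 days. The Alox5 level of inflammatory macrophage-like cells was the lowest among the named macrophage states at 7 days.

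**Figure D4:**
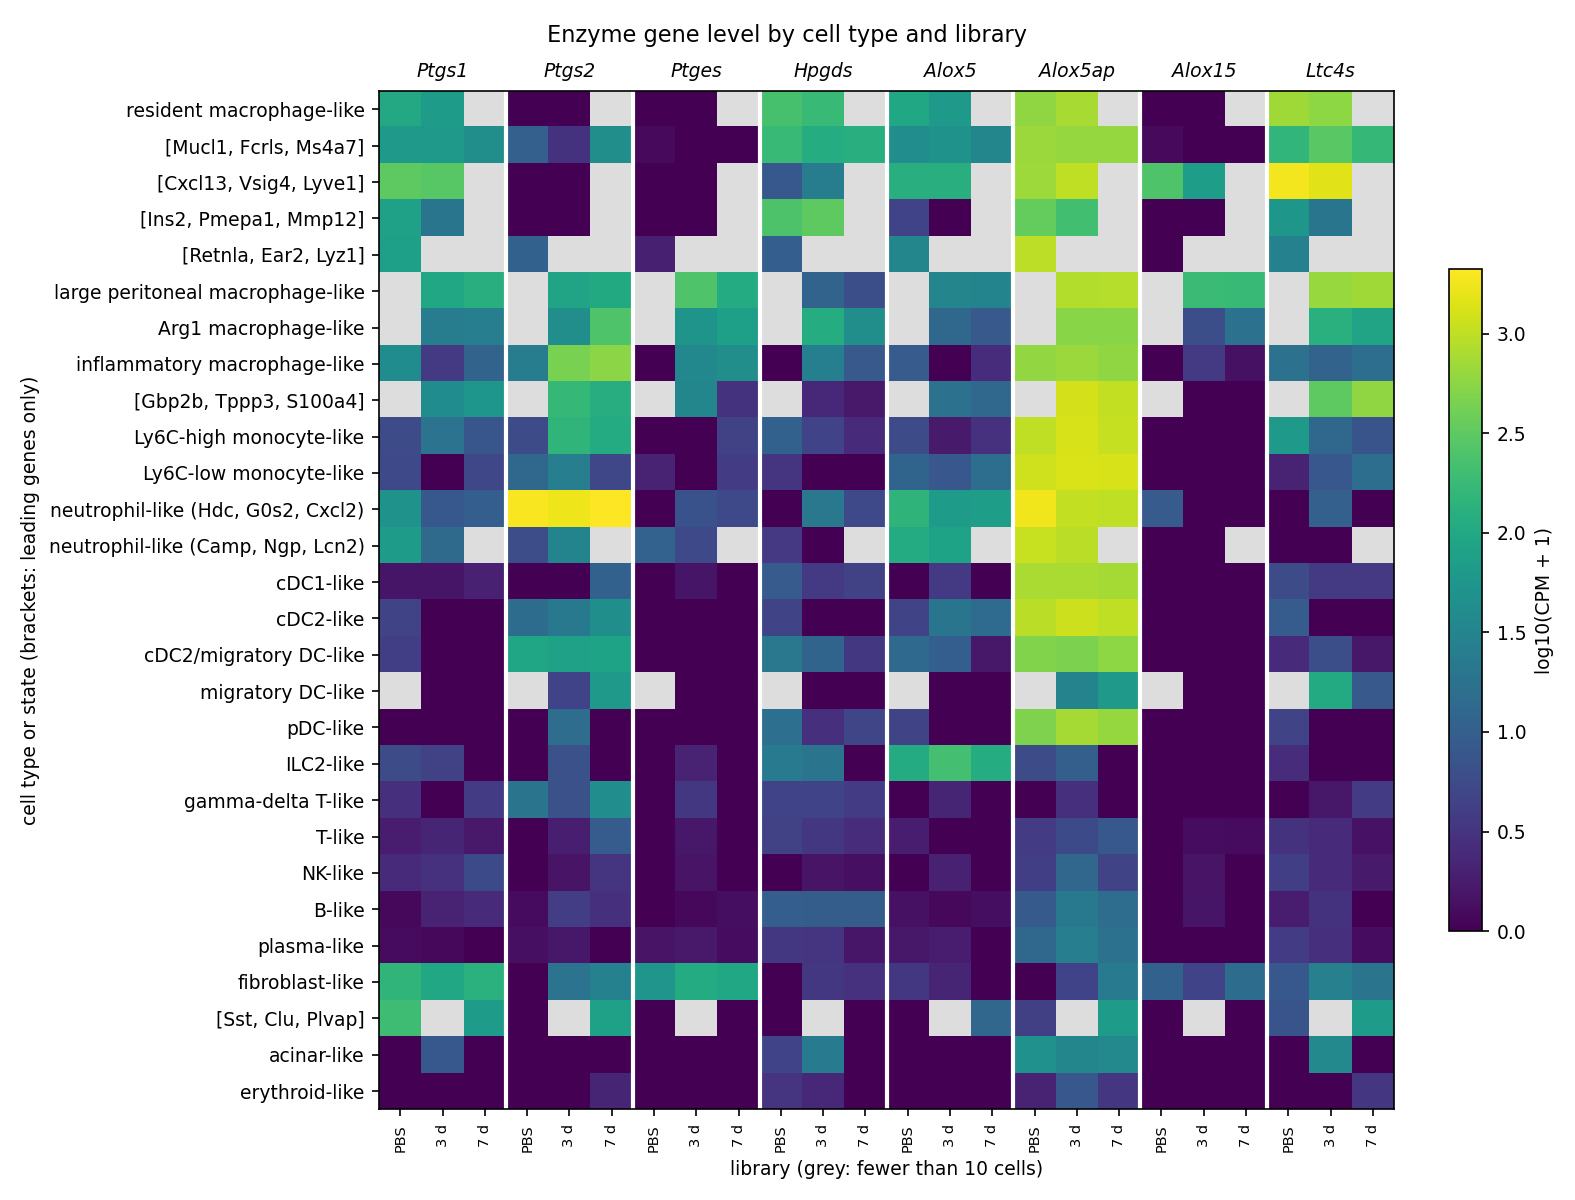
Level of the 8 enzyme genes in 28 cell types and states in the PBS, 3-day (3 d) and 7-day (7 d) libraries, as log10(CPM + 1) by colour, with brackets for states given by their leading genes and grey for fewer than 10 cells. Ptgs2 was highest in the neutrophil-like state led by Hdc, G0s2 and Cxcl2 (1934, 1752 and 2102 CPM), Alox5 in ILC2-like cells at 3 days (216 CPM), Ptges in large peritoneal macrophage-like cells at 3 days (257 CPM), and Alox5ap was seen across myeloid types.

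Alox5ap (ENSMUSG00000060063, chr5:149264767-149288153, plus strand, with the gene Gm19719 on the other strand) encodes the protein that presents arachidonic acid to 5-lipoxygenase. It was found throughout the myeloid cells and differed little between libraries. The monocyte/macrophage-like class was at 704, 872 and 756 CPM, with log2 ratios of 0.31 (95% interval 0.26 to 0.36) and 0.10 (0.06 to 0.15) against PBS. Neutrophil-like cells, at 1269, 1009 and 1012 CPM, were above every other class, with cDC1-like cells at 797, 804 and 757 CPM, the cDC2/migratory DC-like class at 776, 615 and 644 CPM and pDC-like cells at 481, 746 and 634 CPM. The cDC1-like and monocyte/macrophage-like ranges overlapped. By state, Ly6C-low monocyte-like cells (1219, 1365 and 1326 CPM) and Ly6C-high monocyte-like cells (1016, 1309 and 1074 CPM) were above resident macrophage-like cells (597 CPM in PBS and 777 CPM at 3 days) and Arg1 macrophage-like cells (541 CPM and 543 CPM). Migratory DC-like cells stood apart from the other dendritic cells, at 29.4 CPM in 28 cells at 3 days and 60.1 CPM in 26 cells at 7 days.

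ILC2-like cells held Alox5 with little of its partner. Their Alox5ap level was 4.87, 8.99 and 0 CPM, and their estimated free RNA alone would give 2.43, 6.35 and 1.01 CPM. Of the ILC2-like cells with an Alox5 UMI, 3 of 76 in PBS, 1 of 120 at 3 days and 0 of 6 at 7 days also held Alox5ap. In neutrophil-like cells of the Hdc state it was 12 of 12, 46 of 48 and 24 of 25, and in resident macrophage-like cells 109 of 111 in PBS and 16 of 16 at 3 days. Free RNA held Alox5ap at 221, 318 and 313 CPM, while acinar-like cells, which should lack it, were at 47.3, 32.4 and 35.5 CPM.

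Ltc4s (ENSMUSG00000020377, chr11:50236461-50238616, minus strand, with the gene Gm26542 on the other strand) encodes leukotriene C4 synthase. It was found mainly in macrophages, at 266 CPM in the PBS class, 357 CPM at 3 days and 149 CPM at 7 days, or 0.42 (95% interval 0.35 to 0.50) and -0.83 (-0.92 to -0.75) as log2 ratios against PBS. The order was kept in cells with Xist only, at 271, 460 and 201 CPM. Under other settings the 3-day log2 change of the class, 0.41 after 10 CPM were added, ranged from 0.046 to 2.11. The next class, fibroblast-like cells, was at 6.89, 25.4 and 25.5 CPM, and ILC2-like cells held 2 UMIs in PBS and none after WGP. The states differed far more than the libraries did. The Cxcl13, Vsig4, Lyve1 state, largely left out of the class, was at 1820 CPM in PBS and 1491 CPM at 3 days. Resident macrophage-like cells were at 709 CPM and 568 CPM in the same libraries, and large peritoneal macrophage-like cells at 647 CPM and 715 CPM after WGP. The state led by Gbp2b, Tppp3 and S100a4 was at 312 CPM at 3 days and 582.01 CPM at 7 days. Inflammatory macrophage-like cells, by contrast, were at 10.49 CPM and 14.7 CPM after WGP and Ly6C-high monocyte-like cells at 11.8 CPM and 6.33 CPM.

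Cells with Ltc4s were for the most part cells with Alox5ap, but most large peritoneal and inflammatory macrophage-like cells held Alox5ap in any case. It was found in 251 of all 256 large peritoneal macrophage-like cells at 3 days and in 614 of all 658 inflammatory macrophage-like cells at 7 days. The shares among cells with Ltc4s were near these and show no link between the genes. Of the cells with Ltc4s, 182 of 191 resident macrophage-like cells in PBS, 231 of 234 large peritoneal macrophage-like cells at 3 days and 104 of 105 at 7 days also held Alox5ap, as did 55 of 56 inflammatory macrophage-like cells at 7 days. The reverse did not hold in the last state, where 55 of 614 cells with Alox5ap held Ltc4s, against 231 of 251 large peritoneal macrophage-like cells at 3 days. Alox5, Alox5ap and Ltc4s, the set needed for leukotriene C4, were thus all present in the resident and large peritoneal macrophage-like states, whereas in the inflammatory state at 7 days Alox5ap was at 581 CPM, Alox5 at 1.61 CPM and Ltc4s at 14.7 CPM.

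Alox15 (ENSMUSG00000018924, chr11:70344152-70352031, minus strand), the 12/15-lipoxygenase gene, was found almost wholly in macrophages. The monocyte/macrophage-like class was at 21.8, 80.4 and 19.8 CPM, with log2 ratios of 1.88 (95% interval 1.65 to 2.12) at 3 days and -0.14 (-0.41 to 0.13) at 7 days, and fibroblast-like cells were next at 5.51, 3.46 and 11.9 CPM. Large peritoneal macrophage-like cells held 61.0%, 96.0% and 85.5% of all Alox15 UMIs, at 2355 CPM in 4 PBS cells, 185 CPM in 256 cells at 3 days and 170 CPM in 113 cells at 7 days. Of the rest, the Cxcl13, Vsig4, Lyve1 state held 106 UMIs in PBS (253 CPM) and 15 at 3 days (72.6 CPM), and Arg1 macrophage-like cells held 12 at 3 days (5.22 CPM) and 38 at 7 days (16.5 CPM).

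The Alox15 counts lay in few cells. In large peritoneal macrophage-like cells at 3 days, 14 of 256 cells held at least 10 UMIs each and together 98.3% of the state's 872 UMIs, while 235 cells held none. Of these UMIs, 840 were in the 16 cells with Xist only (2355 CPM, up to 142 UMIs in a cell) and 31 in the 189 cells with a Y-linked transcript only (8.44 CPM). At 7 days 6 of 113 cells held at least 10 UMIs, 91.3% of 288 UMIs, and 1 cell with transcripts of both sexes held 136. The 38 cells with Xist only then held 17 UMIs (22.7 CPM) and the 51 cells with a Y-linked transcript only held 120 (176 CPM). Of the cells with at least 10 UMIs, all 3 in PBS and 13 of 14 at 3 days had Xist only. The direction of the class value depended on the cells read: it was 22.4, 858 and 8.76 CPM in cells with Xist only and 5.62 CPM and 16.9 CPM at 3 and 7 days in cells with a Y-linked transcript only. Whether the cells came from different mice was not tested.

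**Figure D5:**
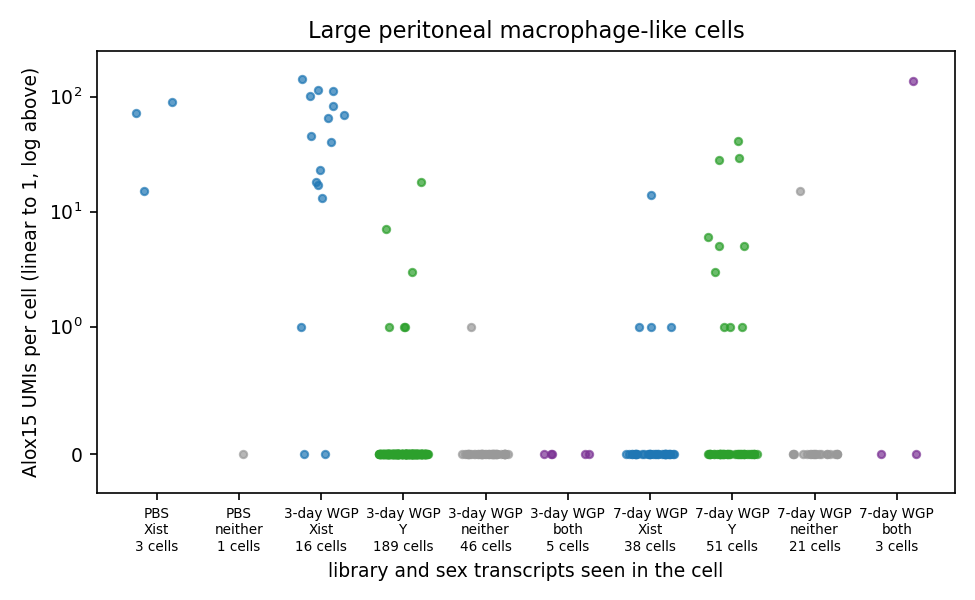
Alox15 UMIs in each large peritoneal macrophage-like cell, by library and by the sex transcripts seen in the cell (axis linear up to 1 UMI and logarithmic above, 1 point per cell, points spread sideways). At 3 days 840 of 872 UMIs were in the 16 cells with Xist only and 31 in the 189 cells with a Y-linked transcript only, most of which held none.

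Ptges did not follow Alox15 in these cells. At 3 days Ptges was at 33.7 CPM in large peritoneal macrophage-like cells with Xist only and 294 CPM in those with a Y-linked transcript only, and at 7 days at 97.3 CPM and 141 CPM. Of the 14 cells with at least 10 Alox15 UMIs at 3 days, 5 held a Ptges UMI, against 151 of all 256.

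Read against all genes, the 8 enzyme genes were counted with a fixed rule, a change of at least 2-fold after 10 CPM were added to both levels, among the 7618 genes with a mean of at least 10 CPM in the monocyte/macrophage-like class. All 8 enzyme genes met that minimum. The mean was taken over the 3 libraries, so a gene could meet it through the library where it was high. Ptgs2 and Ptges, at 6.86 and 0.613 CPM in PBS, met it only through the libraries after WGP. The same minimum was used for all genes. At 3 days 4 of the 8 passed the rule, Ptgs2, Ptges and Alox15 higher and Hpgds lower, where 7.13% of all genes did (3.91% higher and 3.22% lower). At 7 days 4 of the 8 passed, Ptgs2 and Ptges higher and Hpgds and Alox5 lower, where 9.61% of all genes did (4.38% higher and 5.22% lower). The median log2 change of the 8 was 0.36 and -0.44, beside -0.04 and -0.11 for all genes tested. At 7 days Ptgs1 (-0.95) and Ltc4s (-0.79) lay just inside the rule, and both passed it, for 6 of 8, under 9 of the 18 other settings tried, among them the addition of macrophage sub-clusters without a name to the class. With 50 CPM added in place of 10, 2 of the 8 passed at 7 days, Ptgs2 and Hpgds. At 3 days, with cells that held over 8434 UMIs left out, 2 of 8 passed, Ptgs2 and Ptges.

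The wider pathway was counted with the same rule over 55 other genes of eicosanoid release, synthesis, breakdown and reception, of which 53 were in the count table and 24 met the minimum. At 3 days 3 passed higher and 3 lower, and at 7 days 3 higher and 2 lower. Among the genes of substrate release, Pla2g7, a phospholipase of the platelet-activating factor acetylhydrolase family, was at 172 CPM in PBS and higher after WGP, at 358 and 559 CPM, and Pla2g2d, a secreted phospholipase, was lower, at 40.9, 4.72 and 0.420 CPM. Hpgd, which starts the breakdown of prostaglandins, was at 412 CPM in PBS, 36.0 CPM at 3 days and 28.7 CPM at 7 days, log2 ratios of -3.52 (95% interval -3.67 to -3.37) and -3.84 (-3.98 to -3.70). Cyp4f18, which breaks down leukotriene B4, was at 127, 53.8 and 103 CPM, and Dpep2, a dipeptidase that cleaves leukotriene D4, at 12.1, 34.5 and 28.6 CPM. Both passed at 3 days only, and the difference between the times was not tested.

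None of the 4 other prostanoid synthases tested and none of the 3 prostanoid receptors tested passed at either time. Tbxas1, the thromboxane synthase gene, was at 113, 170.4 and 122 CPM and Ptger4, a prostaglandin E2 receptor, was at 39.3, 42.8 and 42.9 CPM. Of the 4 leukotriene and lipoxin receptors tested, Fpr2, a formyl peptide and lipoxin receptor, was at 11.6, 259.6 and 265 CPM (log2 ratio 4.48, 95% interval 4.18 to 4.79, at 3 days), and Ltb4r1, the high-affinity leukotriene B4 receptor, was at 21.0, 28.9 and 54.6 CPM and passed at 7 days. Cotl1, whose product binds 5-lipoxygenase as well as actin, was the most abundant gene of its role, at 613, 668 and 458 CPM, and did not pass.

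Genes with the most similar pattern were found by Pearson correlation of log2(CPM + 10) over 70 sums of 1 cell type in 1 library with at least 30 cells, among 8108 genes. The sums share their libraries and cell sorting, so the values are a description. Ptgs1 was closest to Timp2 (0.857), Trim47 (0.855) and Epb41l1 (0.845), and Ptgs2 to Acod1 (0.877), Slc7a11 (0.849) and Ccrl2 (0.847). Ptges was closest to Ctsk (0.847), Cfb (0.801) and Cxcl1 (0.771), and Hpgds to Ms4a7 (0.903), Stab1 (0.808) and Ccl12 (0.795). The weakest set was that of Alox5, with Mmp9 (0.679), Cd33 (0.672) and Lpcat2 (0.656). Alox5ap was closest to Spi1 (0.940), the PU.1 transcription factor of myeloid cells, Nfam1 (0.934) and Cd300a (0.929). Alox15 was closest to Prg4 (0.954), Marco (0.903) and Cd5l (0.859), and Ltc4s to Mertk (0.898), Myo7a (0.889) and C3ar1 (0.888).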

How the data were processed

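Per the labels, the authors sorted live CD45+ cells, made 10x Genomics 3′ libraries and ran Cell Ranger 3.1.0 on the mm10 assembly, and the deposited files hold UMI counts per gene and barcode, with no normalization. Seurat is named in the submitters' processing notes without a version. The enzyme genes, the wider pathway list and the marker lists were chosen with earlier results of these data known.

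Barcodes with at least 1000 UMIs numbered 5689, 5085 and 4521 (PBS, 3-day WGP, 7-day WGP), and those of over 30% mitochondrial UMIs were left out (440, 206 and 347). The automatic threshold of Scrublet (scanpy 1.11.5) called 0, 1 and 1 doublets, so the highest-scoring 0.8% per 1000 cells were removed (220, 190 and 139). Cells were normalized with sctransform 0.4.2 in Seurat 5.3.0 (R 4.3.3), with cell-cycle scores and the ribosomal and mitochondrial shares regressed out, as the study's methods state, and with 3000 variable genes, 30 principal components and a clustering resolution of 0.8, and with the enzyme, pathway and sex-linked genes left out. The study also removed cells above an upper count limit. A limit at the knee of the counts, 8434 UMIs, was an alternative here. Naming a cluster needed a marker list with a mean log2 enrichment of 1 or more, 0.5 above the next list, and at least 3 raised markers. The naming limits were chosen with the clusters in view, and a difference from the study may come from the rebuilt names. Macrophage states came from a second clustering of the monocyte/macrophage-like class and of unnamed clusters in which over 33.3% of cells held Csf1r, so the states add to more cells than the class.

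Counts of the deposited files were summed per cell type and library (Python 3.11.15, numpy 2.4.6, pandas 2.3.3). Intervals are 95%: exact Poisson for levels, exact conditional binomial for ratios, Clopper-Pearson for shares (scipy 1.17.1). UMIs are counted molecules, and the intervals cover counting error only, not the spread between mice. Library totals were 52464690, 56849043 and 48219246 UMIs, of which kept cells held 42991425, 48824069 and 39172662. Free RNA was read from barcodes of at most 100 UMIs, and its share of a cell type from acinar genes, with acinar-like cells set to 100% by construction. Since reads were counted at the 3′ end and levels are not per length, levels were compared between cells and not between genes. All 8 enzyme genes are named, along with pathway genes that passed the 2-fold rule at either time or had the highest mean in their role, and for each enzyme gene the 3 genes with the highest correlation. Prxl2b and Ptgr3 of the pathway list were not analysed here. Alternatives changed the cell filters, the doublet step, the clustering, the scaling (including the TMM factors of edgeR 4.0.16, the only use of that tool), the pseudocount and the low filter. The scripts were tested on simulated data. Figures were drawn with matplotlib 3.10.9.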

Additional observations from a re-analysis of the deposited data

Results flagged for a closer look

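Ltc4s, the leukotriene C4 synthase gene, was above PBS at 3 days and below it at 7 days in both the cDC2/migratory DC-like class (log2 ratio 1.54 and -2.96, from 20, 32 and 3 UMIs) and the monocyte/macrophage-like class (0.42 and -0.83). The opposite directions at the different times drew attention, and with 1 library per group the difference between the times was not tested. In the monocyte/macrophage-like class the 3-day log2 change, after 10 CPM were added, ranged from 0.046 to 2.11 under other settings. This class largely leaves out the Cxcl13, Vsig4, Lyve1 state, which held the highest Ltc4s level.

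The barcodes of at most 100 UMIs, which hold free RNA and belong to no comparison of cells, held more of Ptgs2, Ptges and Alox5ap at both times after WGP than in PBS, and more Alox15 at 3 days. Ptgs2 was at 9.92 CPM there in PBS, 68.8 CPM at 3 days and 136 CPM at 7 days, and Ptges at 1.98, 21.1 and 18.7 CPM. Alox5ap was at 221, 318 and 313 CPM, and Alox15 was at 7.19 CPM in PBS, 16.5 CPM at 3 days and 6.68 CPM at 7 days.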

How the results depend on the processing

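No paired analysis was possible because each group was 1 library. In the monocyte/macrophage-like class, 18 other settings were tried. Ptgs2 passed the 2-fold rule under all 18 at both times, Ptges under 18 at 3 days and 17 at 7 days, Hpgds under 16 and 18, Alox15 under 15 at 3 days and Alox5 under 16 at 7 days. With 50 CPM added, Ptges and Alox5 at 7 days and Alox15 at 3 days did not pass. The count of enzyme genes that passed at 3 days was 4 and became 2 with cells above 8434 UMIs left out. At 7 days it was 4 and became 2 with 50 CPM added to each level, and ranged up to 6. The wider pathway count at 3 days, 6, became 3 with the limit of 8434 UMIs, 2 in cells with Xist only, 15 in cells with a Y-linked transcript only (7 PBS cells) and 2 with 50 CPM added, and at 7 days 5 became 17 and 3 under the last pair of settings. Without the low filter 3.75% and 5.0003% of all genes passed. Directions reversed for Alox5 at 7 days in cells with a Y-linked transcript only (0.64) and for Alox15 at 3 days under the limit of 8434 UMIs (-0.97), and the cause was not tested. Ltc4s, which did not pass at either time, ranged from 0.046 to 2.11 at 3 days and from -1.49 to 0.57 at 7 days. Of 256 values of single enzyme genes, 142 stayed within their counting interval, 112 moved (51 higher and 61 lower) and 2 reversed. Of 40 shares of cells, read with less thinning or none, 34 moved, all of them higher. Of 92 levels in a macrophage state or in ILC2-like cells, 38 moved (17 higher and 21 lower). Scaling factors by TMM were 1.10, 0.999 and 0.913. These alternatives were chosen after seeing the data: adding unnamed macrophage sub-clusters, states at a resolution of 0.4, ILC2-like cells without barcodes rich in Cpa3 and Mcpt4, and macrophages without cells that held Retnlg, Cxcr2 or Csf3r. At a resolution of 0.4 resident macrophage-like cells merged with the Mucl1, Fcrls, Ms4a7 state, and large peritoneal with Arg1 macrophage-like cells. With 1 library per group, no value here carries the spread between mice, and groups of under 20 cells give wide intervals.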

Other observations

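Of the resident macrophage-like cells with Ptgs1, 79 of 107 also held Hpgds in PBS, and 14 of 20 at 3 days. In large peritoneal macrophage-like cells it was 15 of 129 at 3 days and 3 of 66 at 7 days. Ptgs1 and Ptgs2 were found together in 27 of 129 large peritoneal macrophage-like cells with Ptgs1 at 3 days and in 35 of 60 inflammatory macrophage-like cells with Ptgs1 at 7 days. These counts were not thinned. They are not set beside the share of all cells of a state with Hpgds or Ptgs2, so they show no link between the genes.

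Barcodes with at least 5 UMIs of the mast cell genes Cpa3 and Mcpt4 numbered 2 in PBS and 13 at 3 days, over all kept cells. The 13 held 13 Hpgds UMIs (294 CPM, 95% interval 157 to 503) and 9 Alox5 UMIs (204 CPM, 93.1 to 386). Mast cells are a known source of prostaglandin D2 and leukotriene C4, and these barcodes were too few for a comparison.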
